A study of Arabidopsis thaliana with 4 samples.

Results

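The 20 nuclear transcripts described here were those whose level in lux-6 seedlings was 50% or less of that in Col-0 seedlings in every pairing of libraries. They were selected on the deposited expression values of the same comparison, given as FPKM, which are fragments scaled to the length of the gene and the size of the library. A gene was taken when its lower Col-0 library was at 5 FPKM or more and at least 2 times its higher lux-6 library. Of 33602 gene identifiers, 13898 reached 5 FPKM in both Col-0 libraries and 24 of those, 0.173%, met the rule. The rule leaves out 7 identifiers and all plastid and mitochondrial genes, which removed 4 of the 24. All differences between the genotypes given for these genes are therefore descriptions of how they were chosen, with no test. The mirrored rule, lux-6 at 5 FPKM or more and at least 2 times Col-0, was met by 550 of 14975 genes, or 3.67%.

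Whole seedlings of lux-6, a line in the Col-0 ecotype with the genotype given as lux -/-, were set against wild-type Col-0 seedlings, with 2 libraries each that the series calls biological replicates. All seedlings were 10 days old, kept in LD cycles on MS medium with 3% sucrose and collected at zeitgeber time 12 h. The nature of the lux-6 mutation is not stated in the labels. LUX encodes a Myb-type transcription factor of the evening complex, which represses its target genes around dusk together with ELF3 and ELF4. The data are from whole seedlings, so fewer cells of a type and less RNA per cell cannot be told apart.

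The LUX transcript (AT3G46640, listed as PCL1 in RefSeq) was at 34.8 and 35.3 FPKM in lux-6 and at 57.0 and 73.9 FPKM in Col-0, so it did not meet the rule. Fragment totals worked back from the values lay between 10735709 and 11198704 per library. The second Col-0 library differed from the rest in its plastid RNA. Plastid-encoded transcripts took 0.0698% and 0.0530% of the FPKM sum in lux-6, against 0.0525% and 3.09% in Col-0 replicates 1 and 2. The Col-0 libraries also differed beyond plastid RNA. Over the 13898 genes the higher Col-0 library was a median 1.25 times the lower, against 1.1 times in lux-6. Col-0 replicate 2 was below replicate 1 in 10 of 10 phosphate-starvation and 16 of 17 aliphatic glucosinolate genes tested. It was above replicate 1 in 15 of 19 flavonoid genes. Of the root, guard cell, vascular and epidermis markers, only 1 root marker was at 0 in all libraries. Seed markers lay higher in lux-6, with summed levels of 2003 and 2111 FPKM, against 212 and 17 FPKM in Col-0.

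**Figure D1:**
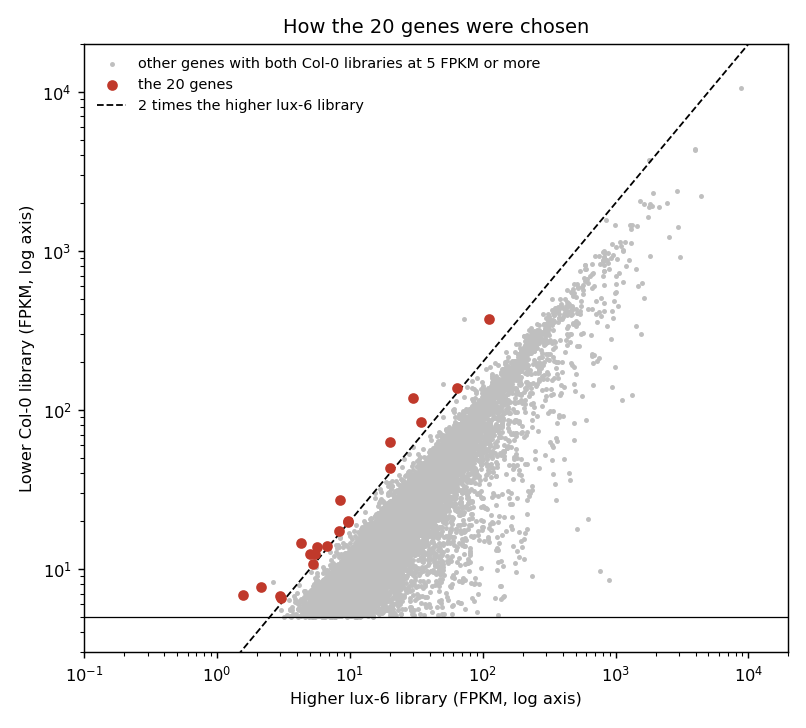
Each point is a gene with both Col-0 libraries at 5 FPKM or more, plotted by its higher lux-6 library (horizontal log axis, FPKM) and its lower Col-0 library (vertical log axis, FPKM). The 20 genes lie above the dashed line of 2 times the lux-6 level, and the few grey points above it are the 4 genes that the rule leaves out by identifier.

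The members bHLH38 and bHLH39 belong to the iron-deficiency response. They encode basic helix-loop-helix transcription factors which plants make when iron is short. With the factor FIT they switch on the genes that reduce and take up iron in the root, and both are also made in leaves. The other members are spread over light signalling, gibberellin synthesis, small cysteine-rich peptides, cell wall and starch enzymes, a chaperone and genes that RefSeq lists as uncharacterized, whose roles are not described here. In the RefSeq annotation 6 of the 20, or 30%, were called uncharacterized, against 4.52% of the genes that reached 5 FPKM in both Col-0 libraries.

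The genes for bHLH38 and bHLH39 are neighbours, and so are 2 further pairs of members, which puts 6 of the 20 next to another member. The first pair lies on the minus strand of chromosome 3, with 1144 bases between them. AT1G47395 and AT1G47400, a pair of genes with 1 exon each that RefSeq lists as uncharacterized, lie 1876 bases apart on the plus strand of chromosome 1. The defensin-like genes AT1G13608 and AT1G13609 lie 269 bases apart on the same strand and chromosome. Both genes of each pair were low in lux-6 because the rule asks for that. The 250 bases before the start of each gene are shown for the first and second pair, whose windows share runs of at least 12 bases. They come from RefSeq's TAIR10.1, are written in the direction of the gene, and have in capitals each run of at least 12 bases that also occurs in the window of the neighbour. The first 2 are chr3:21085246-21085495 and chr3:21087711-21087960, and the others chr1:17382748-17382997 and chr1:17385457-17385706.
bHLH38: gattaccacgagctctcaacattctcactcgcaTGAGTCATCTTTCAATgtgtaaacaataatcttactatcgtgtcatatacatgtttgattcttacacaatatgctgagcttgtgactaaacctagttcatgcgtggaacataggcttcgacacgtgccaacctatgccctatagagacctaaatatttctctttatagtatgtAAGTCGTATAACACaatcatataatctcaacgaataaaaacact
bHLH39: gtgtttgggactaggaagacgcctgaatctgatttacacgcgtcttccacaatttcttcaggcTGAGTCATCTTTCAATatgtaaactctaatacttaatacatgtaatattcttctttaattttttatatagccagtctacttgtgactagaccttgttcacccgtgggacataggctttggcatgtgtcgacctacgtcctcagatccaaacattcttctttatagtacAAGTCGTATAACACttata
AT1G47395: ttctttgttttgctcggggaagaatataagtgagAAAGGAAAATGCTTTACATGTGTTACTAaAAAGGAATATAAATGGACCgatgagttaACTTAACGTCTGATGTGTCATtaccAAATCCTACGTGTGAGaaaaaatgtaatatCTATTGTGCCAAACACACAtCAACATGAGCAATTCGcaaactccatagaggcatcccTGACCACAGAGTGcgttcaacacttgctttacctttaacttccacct
AT1G47400: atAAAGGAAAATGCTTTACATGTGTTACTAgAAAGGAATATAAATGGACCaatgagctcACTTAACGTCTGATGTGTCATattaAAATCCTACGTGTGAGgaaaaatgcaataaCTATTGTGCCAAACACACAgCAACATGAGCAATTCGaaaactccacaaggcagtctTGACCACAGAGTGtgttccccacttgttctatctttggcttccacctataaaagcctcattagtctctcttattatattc
The windows of AT1G47395 and AT1G47400 share 7 such runs, which hold 132 of 250 bases, the longest with 28 bases. Those of bHLH38 and bHLH39 share 2 runs with 30 bases in all. The windows of the defensin-like pair share none of that length.

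**Figure D2:**
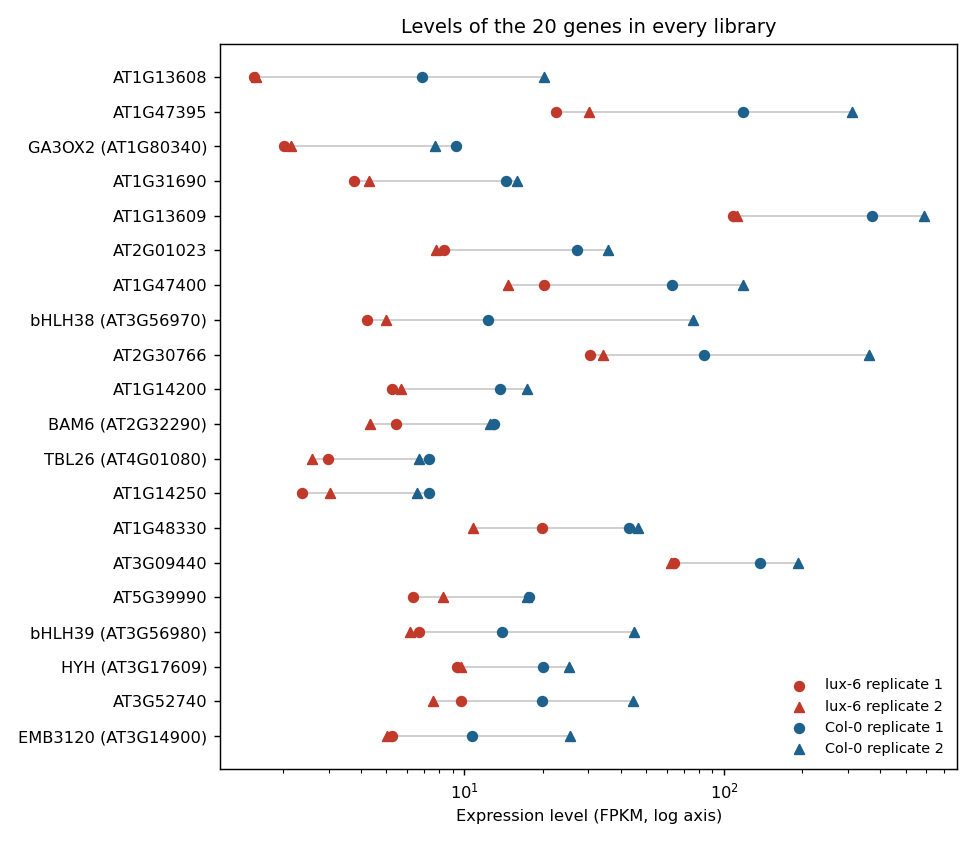
Expression of each of the 20 genes in every library (horizontal log axis, FPKM), ordered from the widest gap between genotypes at the top to the narrowest at the bottom. Red symbols are lux-6 and blue symbols Col-0, with circles for replicate 1 and triangles for replicate 2, and no red symbol reaches a blue one because the rule asks for that.

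The iron-linked transcription factors were alike in the lux-6 libraries and far apart in the Col-0 libraries. bHLH38 (AT3G56970) was at 4.20 and 5.0 FPKM in lux-6, against 12.3 and 76.2 FPKM in Col-0, with replicate 1 given before replicate 2 here and in what follows. bHLH39 (AT3G56980) was at 6.70 and 6.19 FPKM in lux-6, against 14.0 and 44.9 FPKM in Col-0. The Col-0 libraries differed 6.17 times for bHLH38 and 3.21 times for bHLH39, replicate 2 being the higher. The gap between the genotypes was thus set by Col-0 replicate 1, at 2.47 and 2.09 times the higher lux-6 library. The values of bHLH38 rest on 42 and 49 fragments in lux-6 and on 124 and 778 in Col-0. Its annotated exons overlap those of AT3G56960 on the other strand, and the sources used here do not say whether counting used strand. AT3G56960 was at 5.88 and 6.33 FPKM in lux-6, against 8.42 and 5.91 FPKM in Col-0, and did not follow bHLH38.

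The pair AT1G47395 and AT1G47400 was likewise highest in Col-0 replicate 2, at higher levels. AT1G47395 was at 22.6 and 30.1 FPKM in lux-6, against 118 and 311 FPKM in Col-0. AT1G47400 was at 20.2 and 14.7 FPKM in lux-6, against 62.8 and 118 FPKM in Col-0. In both genes each Col-0 library was at least 3.11 times the higher lux-6 library, while the order of the lux-6 libraries was not the same. RefSeq records each of the pair as the best protein match of the other, yet only 10 of the 784 and 730 stretches of 50 bases in their transcripts were shared, so few reads of that length could be split between them. AT2G30766 on chromosome 2, likewise uncharacterized in RefSeq, was at 30.4 and 34.2 FPKM in lux-6, against 83.9 and 362 FPKM in Col-0. Its Col-0 libraries differed 4.31 times, second among the members to bHLH38. It overlaps genes of the other strand on both sides, AT2G30760 and AT2G30770, which were lower in lux-6 too. AT2G30760 was at 0.980 and 1.34 FPKM in lux-6, against 2.60 and 2.56 FPKM in Col-0. AT2G30770 was at 5.42 and 5.54 FPKM in lux-6, against 7.01 and 11.8 FPKM in Col-0.

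The defensin-like pair held the member with the widest gap and the one with the highest level. Defensin-like genes encode small secreted peptides rich in cysteine. AT1G13608 was at 1.54 and 1.57 FPKM in lux-6, against 6.89 and 20.3 FPKM in Col-0, so its lower Col-0 library was 4.38 times its higher lux-6 library. These values rest on 12 fragments in each lux-6 library and on 54 and 162 in Col-0, which makes the lux-6 level imprecise. AT1G13609 was at 108 and 112 FPKM in lux-6, against 371 and 588 FPKM in Col-0. It had the highest mean of all members in either genotype, 110 ± 2.99 FPKM in lux-6 and 480 ± 154 FPKM in Col-0 (SD, n = 2 each). AT1G13607, a defensin-like gene that lies next to AT1G13608, was at 0.538 and 0.275 FPKM in lux-6, against 0.535 and 4.21 FPKM in Col-0. Its genotypes overlapped and it was counted from 16 fragments or fewer.

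**Figure D3:**
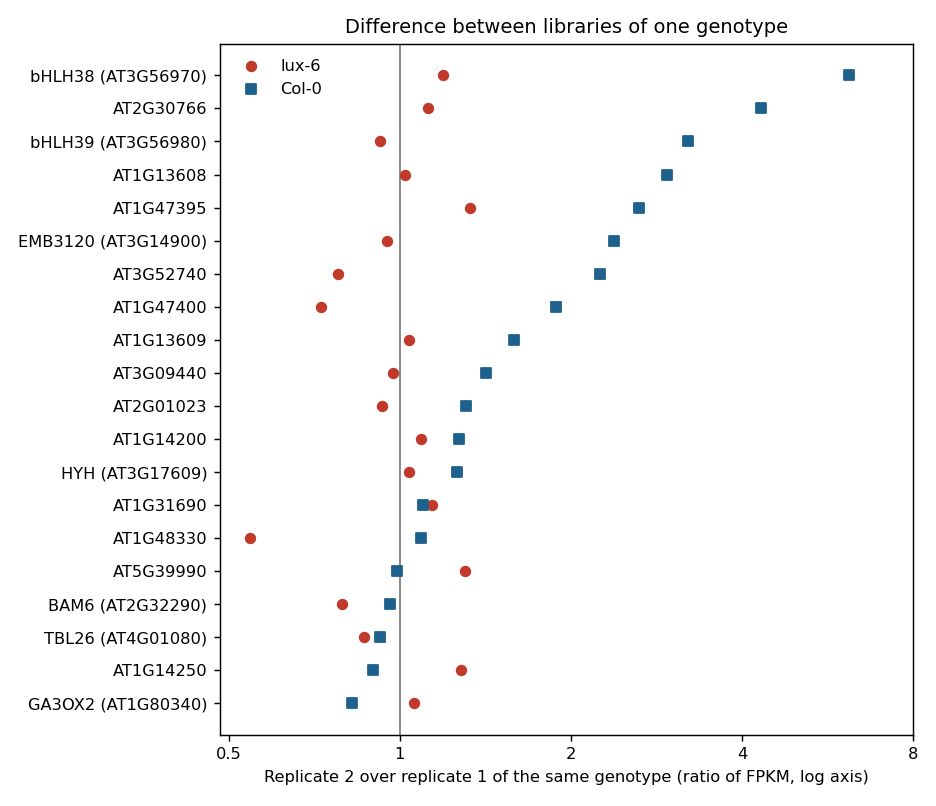
Ratio of replicate 2 to replicate 1 within lux-6 (red circles) and within Col-0 (blue squares) for each of the 20 genes, on a log axis where 1 means equal levels. The Col-0 ratios run up to 6.17 for bHLH38 and lie above 1 for 15 of 20 genes, while the lux-6 ratios stay between 0.545 and 1.33.

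The members differed in how well the Col-0 libraries agreed. In 15 of the 20, or 75%, Col-0 replicate 2 was above replicate 1, where 41.4% of the genes that reached 5 FPKM in both were. In 7 members, or 35%, it was at least 2 times higher, against 2.31% of those genes. The 7 were bHLH38, bHLH39, AT2G30766, AT1G13608, AT1G47395, EMB3120 and AT3G52740. In 7 other members, or 35%, the Col-0 libraries were within 25% of each other, namely GA3OX2, AT1G31690, BAM6, TBL26, AT1G14250, AT1G48330 and AT5G39990. The median ratio of the higher to the lower Col-0 library was 1.36 for the members, against 1.25 for the 13898 genes. The lux-6 libraries were within 25% for 13 members, or 65%, against 84.1% of the 13898 genes. The part of Col-0 replicate 2, the library with the high plastid share, in the spread of these genes was not tested. The rule keeps every member at 2 times or more with either Col-0 library alone, so leaving that library out says nothing about the members.

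HYH and AT3G52740 were taken in near the limit of the rule. HYH (AT3G17609) encodes a bZIP transcription factor closely related to HY5, which promotes light responses in seedlings. It was at 9.35 and 9.68 FPKM in lux-6, against 20.1 and 25.2 FPKM in Col-0. AT3G52740, uncharacterized in RefSeq, was at 9.72 and 7.57 FPKM in lux-6, against 19.8 and 44.6 FPKM in Col-0. Both had a lower Col-0 library just over 2 times the higher lux-6 library, at 2.07 and 2.04 times. The gene that RefSeq records as the best protein match of AT3G52740 is AT3G44450. It was at 2.35 and 1.92 FPKM in lux-6, against 4.67 and 9.34 FPKM in Col-0, and missed the rule on its level and, at 1.99 times, on its gap.

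GA3OX2 (AT1G80340) was the member with the widest gap among the 7 whose Col-0 libraries were alike. It encodes a gibberellin 3-oxidase, which makes bioactive gibberellin from its direct precursor. The transcript was at 2.02 and 2.15 FPKM in lux-6, against 9.30 and 7.67 FPKM in Col-0. This is a mean of 2.09 ± 0.0920 FPKM in lux-6 and 8.48 ± 1.15 FPKM in Col-0 (SD, n = 2 each), on 24 and 25 fragments in lux-6 and 111 and 93 in Col-0. It was 1 of 5 members that were lower in Col-0 replicate 2 than in replicate 1. The gene next to it, AT1G80330, which encodes gibberellin 3-oxidase 4, was at or under 0.418 FPKM in every library.

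Enzymes of the cell wall, polyamines, starch and nucleotides made up 5 further members. AT1G31690, of the copper amine oxidase family that oxidizes polyamines, was at 3.76 and 4.30 FPKM in lux-6, against 14.5 and 16.0 FPKM in Col-0. BAM6 (AT2G32290), of the beta-amylase family that cuts maltose from starch, was at 5.46 and 4.32 FPKM in lux-6, against 13.0 and 12.5 FPKM in Col-0. TBL26 (AT4G01080), of a family with enzymes that acetylate cell wall polysaccharides, was at 2.99 and 2.59 FPKM in lux-6, against 7.28 and 6.71 FPKM in Col-0. These 3 had Col-0 libraries within 25% of each other and a gap of 3.38, 2.29 and 2.24 times. AT5G39990, listed in RefSeq as the beta-glucuronosyltransferase GlcAT14A, which adds glucuronic acid to arabinogalactan proteins, was at 6.34 and 8.27 FPKM in lux-6, against 17.7 and 17.4 FPKM in Col-0. AT1G14250, of the GDA1/CD39 nucleoside phosphatase family, was at 2.37 and 3.03 FPKM in lux-6, against 7.32 and 6.58 FPKM in Col-0. In AT5G39990 and AT1G14250 the lux-6 libraries differed more than the Col-0 libraries did, 1.30 and 1.28 times against 1.01 and 1.11 times.

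Genes of the same family beside these members did not share their pattern. AT1G31710, a copper amine oxidase gene next to AT1G31690, was at 41.6 and 46.4 FPKM in lux-6, against 38.5 and 9.50 FPKM in Col-0. AT1G14240, a nucleoside phosphatase gene 334 bases from AT1G14250, was at 9.90 and 18.1 FPKM in lux-6, against 16.1 and 4.25 FPKM in Col-0. The first lay above both Col-0 libraries in lux-6 and the genotypes of the second overlapped. AT1G14250 shared 4.83% of its stretches of 50 bases with other genes, most with AT1G14230. The annotated exons of BAM6 overlap AT2G32280 of the other strand, which was at 6.89 and 9.83 FPKM in lux-6, against 7.86 and 11.2 FPKM in Col-0.

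The remaining members were a chaperone gene, a RING protein gene and AT1G48330, EMB3120 and AT2G01023. AT3G09440, which encodes a heat shock protein 70 chaperone, was at 64.2 and 62.5 FPKM in lux-6, against 137 and 193 FPKM in Col-0. It had the most fragments of the 16 members for which whole fragments could be worked back, 1607 and 1532 in lux-6 and 3435 and 4947 in Col-0, so counting error is small there. It overlaps AT3G09430 of the other strand, which was at or under 4.53 FPKM in every library. AT1G14200, of the RING/U-box family that includes ubiquitin ligases, was at 5.24 and 5.70 FPKM in lux-6, against 13.7 and 17.4 FPKM in Col-0. AT1G48330, named SsrA-binding protein in RefSeq, was at 19.9 and 10.8 FPKM in lux-6, against 42.9 and 46.6 FPKM in Col-0. It was the member with the widest spread in lux-6, at 1.84 times. EMB3120 (AT3G14900), a gene named for an embryo-defective mutant, was at 5.28 and 5.02 FPKM in lux-6, against 10.7 and 25.5 FPKM in Col-0. It had the narrowest gap of all members, 2.03 times. AT2G01023 has an annotated length of 120 bases and was at 8.36 and 7.76 FPKM in lux-6, against 27.2 and 35.7 FPKM in Col-0. Its values rest on 11 and 10 fragments in lux-6 and on 36 and 48 in Col-0, and 33.8% of its stretches of 50 bases occur in other genes, so its level is uncertain.

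Over the 20 members, the lower Col-0 library was between 2.03 and 4.38 times the higher lux-6 library, with a median of 2.34. In 7 members the gap was at least 3 times and in 13 it was under 2.5 times. Mean levels ran between 1.56 and 110 FPKM in lux-6 and between 6.95 and 480 FPKM in Col-0, and 4 members averaged over 100 FPKM in Col-0. The median annotated exon length was 1148 bases, against 1790 bases for the genes at 5 FPKM or more in both Col-0 libraries. Members with 1 exon made up 35%, against 10.0% of those genes.

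The limit of 2 times fell in a dense part of the range. Just inside it were EMB3120, AT3G52740, HYH, bHLH39 and AT5G39990, with gaps of 2.03, 2.04, 2.07, 2.09 and 2.11 times. Just outside were AT1G23205, CYP706A6 (AT4G12320), GPRI1 (AT2G20570), AT1G12030 and AT5G62840, with 1.96, 1.95, 1.94, 1.93 and 1.89 times. GPRI1, also called GLK1, encodes a transcription factor of chloroplast development and was at 25.3 and 25.5 FPKM in lux-6, against 58.5 and 49.4 FPKM in Col-0. Beside the genes left out by identifier, a further 14 genes with 1 to 5 FPKM in the lower Col-0 library were at least 2 times lower in lux-6. The nearest of these to the limit was AT4G13620, with 0.908 and 1.39 FPKM in lux-6, against 4.26 and 6.74 FPKM in Col-0.

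With limma on log2(FPKM + 1) over 19592 genes, none of the 20 members passed the adjusted threshold of 0.05, where 0.0051% of all genes tested passed as lower, 0.286% as higher and 0.291% in either direction. At an unadjusted p under 0.05 all 20 were lower, where 3.1% of all genes were lower and 9.18% higher, and limma-voom on fragments called 1 of the 20. The rule used this comparison, so nothing is read from these counts. The median log2 fold change of the members, lux-6 over Col-0, was -1.65, and that of all genes tested 0.05. Fits that leave out a library called 20 members without Col-0 replicate 1, 14 without Col-0 replicate 2 and 0 without lux-6 replicate 1 or 2, and take their spread from the genotype that keeps both libraries.

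Beyond bHLH38 and bHLH39, iron-deficiency genes lay mostly lower in lux-6, though none of the 17 others tested passed over all genes. Of these 17, 11 had both lux-6 libraries below both Col-0 libraries, where 22.8% of all genes tested did, and 1 had both above, where 26.1% did. At an unadjusted p under 0.05, 4 of the 17, or 23.5%, were lower and none higher, against 3.1% and 9.18% of all genes tested. The 4 include a gene that the rule leaves out by identifier, which was close to that threshold. The median log2 fold change of the 17 was -0.56, against 0.05 over all genes tested. NAS4 (AT1G56430), which makes the iron chelator nicotianamine, was at 18.8 and 17.2 FPKM in lux-6, against 35.4 and 63.8 FPKM in Col-0. OPT3 (AT4G16370), a transporter that loads iron into the phloem, was at 61.3 and 64.9 FPKM in lux-6, against 89.9 and 134 FPKM in Col-0. Neither passed over all genes, with limma adjusted p = 0.197 and 0.319. bHLH100 (AT2G41240), a close relative of bHLH38, was at 7.03 and 11.9 FPKM in lux-6, against 13.1 and 187 FPKM in Col-0, and was not past the test either (limma adjusted p = 0.506). bHLH101 (AT5G04150), of the same subgroup, was at 18.9 and 23.4 FPKM in lux-6, against 19.6 and 27.2 FPKM in Col-0, with overlapping genotypes.

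Within Col-0 the other iron-deficiency genes did not all go the way of bHLH38. Of the 17, 12 were higher in Col-0 replicate 2 than in replicate 1 and 5 were lower, namely NAS1, PDR9, COPT2, MYB10 and AHA2. Without bHLH38 and bHLH39 the list summed to 412 and 442 FPKM in lux-6 and to 558 and 882 FPKM in Col-0, where bHLH100 alone accounts for 13.1 and 187 FPKM. NAS1 (AT5G04950), a nicotianamine synthase gene, was at 58.5 and 57.9 FPKM in lux-6, against 94.8 and 54.1 FPKM in Col-0, with overlapping genotypes. FIT (AT2G28160), the root partner of bHLH38, was at 2.48 and 2.22 FPKM in lux-6, against 2.70 and 4.25 FPKM in Col-0. FRO2 (AT1G01580), the root ferric reductase, was at 0.265 and 0.232 FPKM in lux-6, against 0.339 and 5.67 FPKM in Col-0. In FIT and FRO2, Col-0 replicate 1 lay close to lux-6 and Col-0 replicate 2 above the rest. The root markers taken as a sum did not have this order of libraries. Of the 15 tested, 5 were higher in Col-0 replicate 2 than in replicate 1 and 10 were lower. The part of root tissue in the levels of FIT and FRO2 was not tested. The 17 markers summed to 145 and 169 FPKM in lux-6 and to 190 and 140 FPKM in Col-0, where Col-0 replicate 2 was the lowest, and 1 of them, NRT2.1, was at 0 in all libraries.

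**Figure D4:**
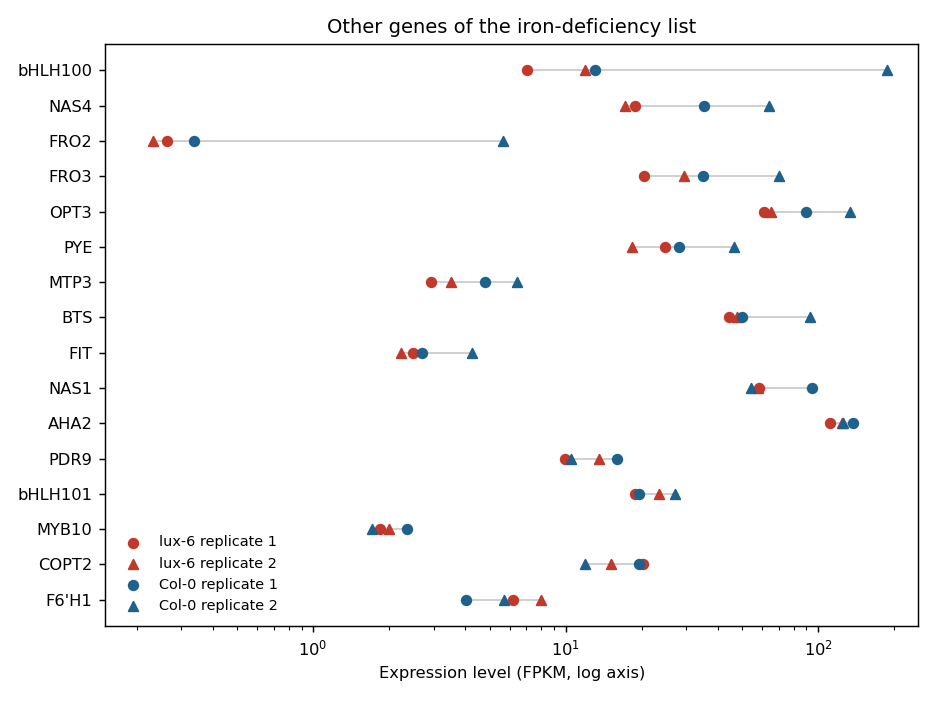
Expression of 16 other genes of the iron-deficiency list in every library (horizontal log axis, FPKM), ordered by fold change with the lowest in lux-6 at the top. A further tested gene of the list, which the rule leaves out by identifier, is not plotted. Red symbols are lux-6 and blue symbols Col-0, with triangles for replicate 2, and bHLH100 and FRO2 show the widest distance between the Col-0 libraries.

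The other pathway lists were counted in the same way. Of 7 tested high-light and UV-B genes none passed over all genes, and the median log2 fold change was -0.50. At an unadjusted p under 0.05, 2 of the 7, or 28.6%, were lower and 1, or 14.3%, was higher, against 3.1% and 9.18% of all genes tested. ELIP1 (AT3G22840), a chloroplast protein made in strong light, was at 8.56 and 10.0 FPKM in lux-6, against 16.2 and 27.5 FPKM in Col-0 (limma adjusted p = 0.254). Of 19 tested flavonoid genes none passed, and the median was -0.58. By the same unadjusted threshold 6 of the 19, or 31.6%, were lower and 1, or 5.26%, was higher. In the cold-response list of 16 tested genes 1 passed as higher and 1 as lower, and the median was 0.41. No gene passed in the aliphatic glucosinolate, sulfate-starvation, phosphate-starvation, cuticle and wax, or lignin lists, whose medians were -0.17, -0.14, 1.08, 0.38 and 0.20. By the unadjusted threshold, 5 of 10 phosphate-starvation genes, or 50%, and 2 of 10 wax genes, or 20%, were higher and none lower. In the glucosinolate list 3 of 17, or 17.6%, and in the lignin list 1 of 12, or 8.33%, were lower and none higher. The sulfate list had 1 of 9 each way, and the cold-response list 5 higher and 2 lower. None of these lists holds a member, but 3 genes of the cold-response and flavonoid lists met both limits and are left out by identifier. All 3 are among the genes counted above as lower, and the cold-response gene that passed as lower is one of them. A further flavonoid gene that is left out by identifier, and that missed the limit of 2 times, is also counted as lower.

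Of 10 guard cell markers tested none passed, and their median log2 fold change was -0.31. In 5 both lux-6 libraries were below both Col-0 libraries, where 22.8% of all genes tested were, and in 1 both were above, where 26.1% were. At an unadjusted p under 0.05, 2, or 20%, were lower and none higher, against 3.1% and 9.18% of all genes tested. The 2 include a gene that the rule leaves out by identifier, which missed the limit of 2 times. The guard cell markers summed to 1139 and 845 FPKM in lux-6 and to 933 and 809 FPKM in Col-0. TGG1 alone accounts for 819 and 572 FPKM of this in lux-6 and for 596 and 421 FPKM in Col-0, so the sum mainly follows that gene. Vascular markers summed to 413 and 372 FPKM in lux-6 and to 380 and 244 FPKM in Col-0, and epidermis markers to 309 and 291 FPKM in lux-6 and to 325 and 291 FPKM in Col-0. None of either list passed the test. Of 9 seed markers, 4 passed as higher in lux-6. The part of these cell types in the levels of the 20 genes was not tested.

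Before the gene starts, short letter patterns bound by clock and light factors were looked for on both strands. In the 250 bases before the start, the evening element AAATATCT was found in 1 of 20 members, or 5%, against 4.79% of 27432 nuclear protein-coding genes. The G-box CACGTG, bound by bZIP and bHLH factors, was found in 2, or 10%, against 6.49%. The LUX binding site, GATACG or GATTCG, and the CCA1 binding site AAAAATCT were found in none, against 12.1% and 6.68%. The matches within 250 bases are shown with 10 bases on either side and the pattern in capitals, in the direction of the gene, from TAIR10.1 at chr3:21085327-21085352, chr1:17863601-17863626 and chr2:13717155-13717182.
bHLH38, G-box 97 bases before the start: taggcttcgaCACGTGccaacctatg
AT1G48330, G-box 49 bases before the start: caaaaaagatCACGTGggaggataag
BAM6, evening element on the other strand 170 bases before the start: agtatcacatAGATATTTattggttata
In 1000 bases the evening element was in 6 members, or 30%, against 15.3% of all genes, and the LUX binding site in 2, GA3OX2 and EMB3120, or 10%, against 39.8%. The G-box was in 4, or 20%, against 14.8%, the ACGT core, which the G-box contains, in 18, or 90%, against 85.0%, and the CRT/DRE core CCGAC in 9, or 45%, against 37.4%. The CCA1 binding site was in 5, or 25%, against 21.1%. The windows of 1000 bases can reach past the gap to the neighbouring gene. The evening elements of AT1G13609 and AT1G14250, at 351 and 586 bases, lie beyond gaps of 269 and 334 bases. The LUX binding site of EMB3120, at 971 bases, lies beyond a gap of 68 bases. A match is not a site that is known to be bound, and with 20 genes 1 gene more or less changes a share by 5 percentage points.

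**Figure D5:**
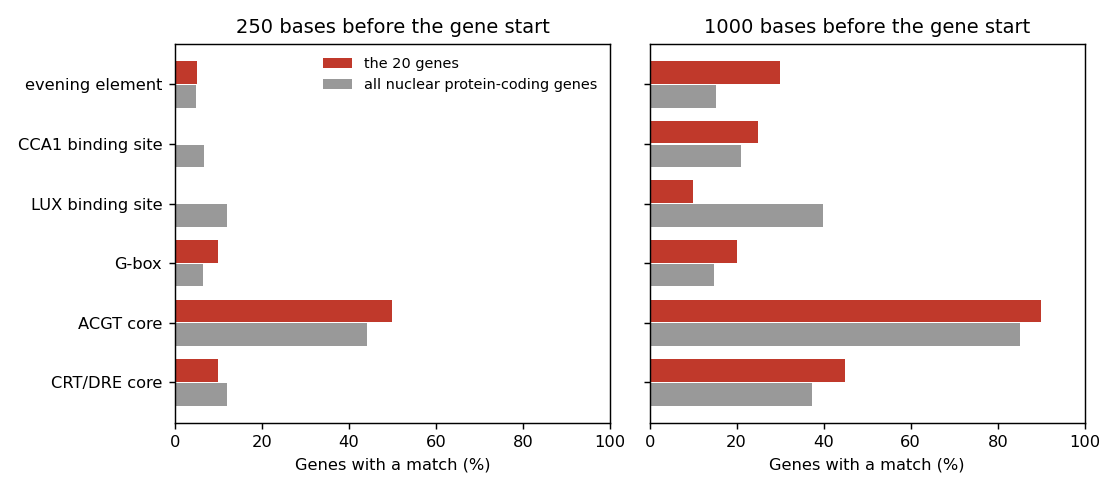
Share of genes with at least 1 match on either strand (horizontal axis, percent) for 6 letter patterns in 250 bases (left) and 1000 bases (right) before the gene start. Red bars are the 20 genes and grey bars all 27432 nuclear protein-coding genes, and the bars differ most for the LUX binding site and the evening element in 1000 bases.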

How the data were processed

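Messenger RNA of 4 whole-seedling libraries was analysed, 2 of lux-6 and 2 of Col-0, grouped by title. The deposited values are FPKM computed by the authors, 1 library per file, per the file headers. TopHat2 2.0.12 and TAIR10 are listed, per the submitters' processing notes, without a role. The counter, gene lengths and strand setting are not stated in the sources. Libraries were made with an NEBNext kit, per the labels' protocols. Members and gene lists (9 pathway and 5 marker lists) were chosen with earlier results of these data known. All members are named. Names and positions are from RefSeq TAIR10.1, which held 97.7% of the identifiers. Genotypes were compared on log2(FPKM + 1) by limma 3.58.1 (R 4.3.3, trended variance, no covariates, two-sided), keeping genes whose mean reached 1 FPKM, with Benjamini-Hochberg adjustment over all of them. Fold changes on that scale understate those of low genes. The model and the search for fragments were tested on simulated data. For the model, all simulated libraries had the median spread of the lux-6 libraries, so that test does not cover the wider spread in Col-0. Whole fragments were sought over lengths of 0.5 to 1.2 times the annotated one, within 0.002, and found for 82.9% of 24532 genes above 0. With 2 libraries per genotype, each p-value sets the difference between genotypes against the spread between these samples, estimated with information from all genes.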

Additional observations from a re-analysis of the deposited data

How the results depend on the processing

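The 20 members depend on the limits of the rule. Their number was 34 at a Col-0 minimum of 1 FPKM, 120 at 1.5 times and 7 at 3 times. It was 16 at a minimum of 10 FPKM, and 19 with median-of-ratios scaling, of which 18 were among the 20, or with organelle genes removed from the total, all 19 among the 20. Leaving out a library relaxes the rule by construction and gave between 37 genes (Col-0 replicate 2 omitted) and 592 (Col-0 replicate 1 omitted), and the 20 are kept each time for the same reason. Over all genes limma called between 0 and 4244 as higher, between 0 and 2374 as lower, between 0 and 69 of the pathway lists and between 0 and 20 members when 1 library was left out, against 56, 1, 2 and 0. With a pseudocount of 0.1, or with no filter beyond a value above 0, limma called 0 genes as higher, 0 as lower and 0 of the lists, where 2316 and 2680 had an unadjusted p below 0.05 and 2407 had in the fit as reported. A mean filter of 5 FPKM gave 97 higher, 3 lower and 1 member of 18 tested. Limma-voom on fragments gave 94 higher, 3 lower and 1 member. Median-of-ratios scaling gave 95 higher, and removing organelle genes left 1 list gene. With replicate as a block, 332 genes were higher and 8 lower, with 5 list genes and 5 members. The replicate numbers are not known to pair the libraries, since replicate 1 minus 2 correlated at -0.025 between the genotypes. The cause of these changes was not tested. With 10735709 to 11198704 fragments per library, counting limits mainly AT1G13608 and AT2G01023.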

Other observations

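Chromosome 1 held 9 of the 20 members, or 45%, against 25.7% of the genes at 5 FPKM or more in both Col-0 libraries. In TAIR10.1, 4 of the 9 (AT1G13608, AT1G13609, AT1G14200 and AT1G14250) lay within 210 kb, chr1:4661682-4871488, which holds 40 such genes. A further 3 (AT1G47395, AT1G47400 and AT1G48330) lay within 482 kb, chr1:17382998-17864558, which holds 41. Both intervals were chosen after the positions were seen.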
